A study of Mus musculus with 6 samples.

Results

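The genes examined were Fn1, which encodes fibronectin, and 9 genes for subunits of the integrins that bind fibronectin or release TGF-β from its latent form, Itga5, Itgav, Itga8, Itga4, Itgb1, Itgb3, Itgb5, Itgb6 and Itgb8. They were taken by name from the 22910 mouse genes that the array reached through a RefSeq accession. The 10 genes were covered by 16 probes, and 8 of them were among the 14345 genes tested. Itga8 and Itga4 were not well above background on any array and were not tested. All cultures were 2D-MAOs, that is, airway epithelial organoids of C57BL/6 mouse lung plated as a flat culture, kept in medium without noggin and A83-01. The TGF-β1 group of 3 cultures received TGF-β1 from day 3, and the control group of 3 cultures received none. All 6 were collected on day 7. Noggin blocks bone morphogenetic proteins and A83-01 blocks TGF-β receptors, so both groups lacked these inhibitors. The study coated its culture wells with type I collagen, a ligand of integrins, and the microarray methods name no concentration of TGF-β1.

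Fibronectin is a large secreted glycoprotein that cells assemble into fibrils. Integrins are pairs of an α and a β subunit that span the membrane and tie the matrix outside the cell to the actin cytoskeleton inside it. The α5 subunit pairs with β1 alone and forms the main receptor that assembles fibronectin, while αv pairs with β1, β3, β5, β6 or β8. TGF-β is secreted bound to its own latency peptide, which carries an RGD motif. The αv integrins with β6 or β8 are known to bind that motif and to free the active growth factor, and β6 is an epithelial subunit that is scarce in resting airway and is induced in injured epithelium. A mouse airway culture given TGF-β1 is thus a setting in which both the ligand and its activators can be followed.

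The deposited values were spot intensities on a linear scale, which were turned into log2 values and normalised by quantiles. A probe was well above background where the scanner software marked it so, and it was tested when this held on at least 3 of the 6 arrays. A gene with several probes was read from the one with the highest mean signal. Differences are TGF-β1 minus control on the log2 scale, and signals of different probes were not set against each other. The groups were compared with limma, with Benjamini-Hochberg adjustment over all 14345 genes, and a DEG changed by 2-fold or more at an adjusted p under 0.05. Of all genes tested, 1.19% were upregulated DEGs and 0.188% were downregulated DEGs. Between 55.0% and 59.0% of the probes were well above background on each array. All arrays lay on 1 slide, with replicates 1 and 2 of both groups in slide row 1 and replicate 3 of both groups in slide row 2. The study calls the cultures biological replicates, and precision was limited by having 3 arrays in each group. All 8 epithelial markers, such as Epcam and Cdh1, were well above background on all 6 arrays. In a culture measured as a whole, a change in the number of cells that make an RNA and a change in the RNA per cell cannot be told apart.

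Of the 8 tested genes, 2 were upregulated DEGs, Fn1 and Itgb3, and none was a downregulated DEG in limma, where none of the 8 was lower at an unadjusted p under 0.05 either. The log2 fold change was above 0 in all 8, against 45.8% of all genes tested, and its median was 0.87, against -0.03 over all genes. Every TGF-β1 array lay above every control array for 5 of the 8, Fn1, Itga5, Itgb3, Itgb5 and Itgb6. This was so for 12.9% of all genes tested. At an unadjusted p under 0.05 in limma, 7 of the 8 were higher, against 11.4% of all genes.

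**Figure D1:**
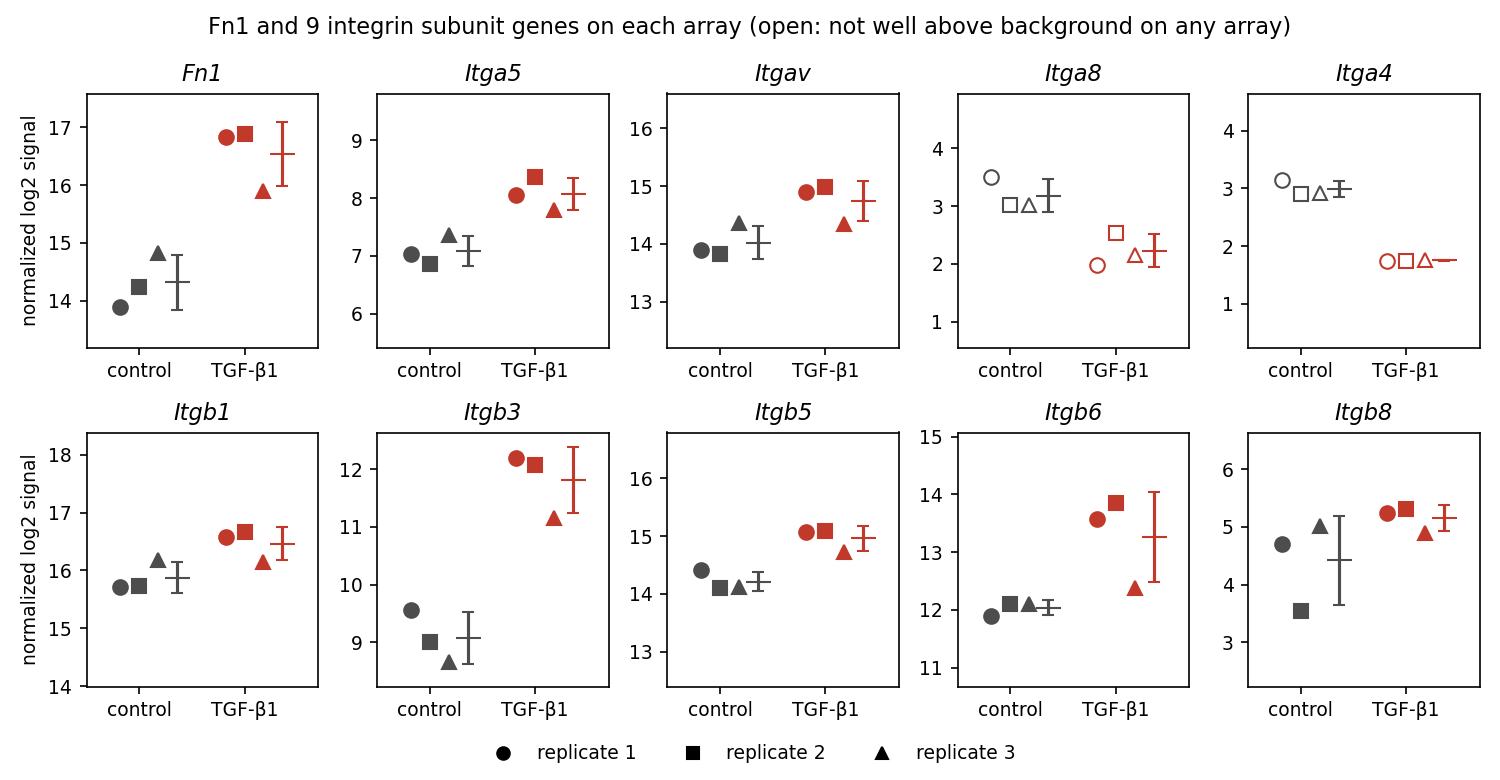
Normalised log2 signal of each of the 10 genes on each array, with 1 panel per gene, a vertical axis of equal length in every panel, grey symbols for control and red symbols for TGF-β1. Symbol shapes stand for replicates, bars give mean ± SD (n = 3), and open symbols mark Itga8 and Itga4, which were not well above background on any array. Among the 8 tested genes, Fn1 and Itgb3 show the largest differences between the group means, and the TGF-β1 triangle (replicate 3) is the lowest TGF-β1 array in all 8.

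Fibronectin RNA rose. The Fn1 signal was 13.88, 14.24 and 14.83 on the control arrays and 16.84, 16.89 and 15.90 on the TGF-β1 arrays, in the order of replicates 1, 2 and 3. The groups did not overlap, although control replicate 3 was the highest control and TGF-β1 replicate 3 the lowest treated array. The means were 14.32 ± 0.48 (SD, n = 3) and 16.54 ± 0.56 (SD, n = 3), a 4.66-fold change. On the log2 scale this was 2.22 (SE 0.34, 95% interval 1.42 to 3.02, limma adjusted p = 0.0279), which ranked 83 among all genes from the highest down. Both other Fn1 probes showed the same separation. One of them, on the same reference transcript, read 10.24, 10.37 and 10.77 in controls and 13.87, 13.74 and 12.12 after TGF-β1, which is 2.78 higher (adjusted p = 0.0332 in limma over all probes tested). The other, designed on another reference transcript of Fn1, read 7.32, 7.80 and 7.98 in controls and 10.72, 11.11 and 9.39 after TGF-β1, which is 2.71 higher (adjusted p = 0.0313 in limma over all probes tested). Over probes as units, 0.983% were called higher.

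The call for Fn1 rested on several arrays. It held without control replicate 3 (log2 fold change 2.48, limma adjusted p = 0.0381) and without TGF-β1 replicate 3 (2.54, adjusted p = 0.0064). It was lost without control replicate 1 (adjusted p = 0.0992), control replicate 2 (adjusted p = 0.115), TGF-β1 replicate 1 (adjusted p = 0.122) or TGF-β1 replicate 2 (adjusted p = 0.11). In all 6 of these fits the log2 fold change was between 2.00 and 2.54. Within slide row 1 the difference was 2.80, and in slide row 2, with 1 array per group, it was 1.07.

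Among the α subunits, none passed the test. Itga5, the fibronectin receptor subunit, read 7.03, 6.86 and 7.36 in controls and 8.06, 8.36 and 7.79 after TGF-β1. The groups were separate. Its mean went from 7.08 ± 0.25 (SD, n = 3) to 8.07 ± 0.28 (SD, n = 3), a 1.98-fold difference just under the 2-fold threshold (log2 fold change 0.99, SE 0.19, limma adjusted p = 0.0592). Scaled to the 75th percentile of each array in place of quantiles, it was a DEG (log2 fold change 1.08, limma adjusted p = 0.0479), and it was also a DEG without TGF-β1 replicate 3 (1.13, adjusted p = 0.0183). With any other single array left out it was none (limma adjusted p = 0.0542 to 0.215), nor with the replicate number as a block (0.145). With a normexp background the log2 fold change was 0.67. The difference was 1.26 in slide row 1 and 0.43 in slide row 2.

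Itgav, the shared partner of the αv integrins, read 13.90, 13.82 and 14.36 in controls and 14.90, 14.99 and 14.34 after TGF-β1. TGF-β1 replicate 3 lay just below control replicate 3, so that the groups overlapped. The mean difference was 0.72 (SE 0.22, 95% interval 0.20 to 1.25, limma adjusted p = 0.146). The difference was 1.09 in slide row 1 and -0.012 in slide row 2.

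The 2 remaining α subunits gave no usable level. Itga8, an RGD-binding subunit of mesenchymal cells, read between 3.01 and 3.51 in controls and between 1.99 and 2.54 after TGF-β1, and over all 6 arrays the brightness of its spots was 1.1 to 1.31 times that of the surrounding background. Itga4, a subunit of leukocytes and neural crest cells that binds the alternatively spliced region of fibronectin, read between 2.90 and 3.15 in controls and between 1.74 and 1.77 after TGF-β1 on the brighter of its 2 probes. On no array did either Itga4 probe clear the background mark. When the filter was dropped, Itga4 was called lower (log2 fold change -1.23, limma adjusted p = 0.0262), a difference between values that were all below the detection mark.

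The β subunits were covered by 5 genes, of which only Itgb3 was a DEG. The 5 encode partners of αv, and β1 pairs with most other α subunits as well. RefSeq promoters, the bases before the annotated start, were at hand for 8 of the 10 genes, with 9 starts, and not for Fn1 and Itgb3. They were read for CAGAC, the core that the TGF-β effector Smad3 is known to bind, for TGACTCA (AP-1) and for TGACGTCA (CRE), on both strands. The 250 bases before the start held CAGAC in 4 of the 8 genes, Itga4, Itgb1, Itgb6 and Itgb8, and in 42.2% of all 32851 promoters of the same length. TGACTCA was in none of the 9 windows, and 4.46% of all promoters held it. TGACGTCA was in none of the 9 windows either, and 1.55% of all promoters held it. The windows of the 3 tested genes with a match are shown because they differ in the number of matches, with CAGAC or its reverse complement GTCTG in capitals. They are given 5′ to 3′ on the strand of the gene, in the build GRCm38.p6. The Itgb6 window lies at chr2:60722604-60722853 on the minus strand, before the first of 2 starts, the Itgb8 window at chr12:119238277-119238526 on the minus strand and the Itgb1 window at chr8:128685404-128685653 on the plus strand.
Itgb6 promoter: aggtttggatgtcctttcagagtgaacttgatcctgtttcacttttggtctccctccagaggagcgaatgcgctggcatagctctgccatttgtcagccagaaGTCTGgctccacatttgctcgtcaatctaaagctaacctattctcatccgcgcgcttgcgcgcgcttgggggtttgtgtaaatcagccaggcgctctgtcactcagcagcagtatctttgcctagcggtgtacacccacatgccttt
Itgb8 promoter: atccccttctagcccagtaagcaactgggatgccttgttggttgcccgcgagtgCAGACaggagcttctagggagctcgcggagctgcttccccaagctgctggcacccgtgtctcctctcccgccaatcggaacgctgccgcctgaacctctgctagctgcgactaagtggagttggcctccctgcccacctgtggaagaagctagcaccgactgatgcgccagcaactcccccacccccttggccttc
Itgb1 promoter: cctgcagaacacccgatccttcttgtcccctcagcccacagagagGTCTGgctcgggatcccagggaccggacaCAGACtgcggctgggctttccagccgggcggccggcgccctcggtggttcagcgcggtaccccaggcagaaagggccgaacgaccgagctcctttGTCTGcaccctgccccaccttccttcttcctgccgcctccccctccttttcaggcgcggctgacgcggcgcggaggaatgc
Itgb1 held 3 matches and each of the others 1. A match of 5 letters is a description of the window and not a binding site.

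Itgb3, the β3 subunit known from platelets, osteoclasts and angiogenic endothelium, rose, with the largest log2 fold change of the 8 tested genes. It read 9.56, 9.01 and 8.67 in controls and 12.20, 12.08 and 11.16 after TGF-β1. The lowest TGF-β1 array was thus well above the highest control. The means were 9.08 ± 0.45 (SD, n = 3) and 11.81 ± 0.57 (SD, n = 3), a 6.66-fold change. Its log2 fold change was 2.73 (SE 0.33, 95% interval 1.94 to 3.53, limma adjusted p = 0.0141), ranked 47 among all genes from the highest down. The ratio of the spot to its local background was 13.0 to 22.1 on control arrays and 64.7 to 135 on TGF-β1 arrays. A second, dimmer probe read 3.24, 3.44 and 2.05 in controls, where it failed the background mark on all 3 arrays, and 6.16, 6.02 and 5.18 after TGF-β1, where it was well above background on all 3. Its change was therefore at least 3.51-fold, with the level at which probes become well above background standing for the controls (limma adjusted p = 0.0239 over all probes tested).

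Within the slide rows the difference in Itgb3 was 2.85 in row 1 and 2.49 in row 2. Its log2 fold change lay between 2.53 and 3.06 with each array left out. The call was lost without control replicate 2 (limma adjusted p = 0.0695), TGF-β1 replicate 1 (adjusted p = 0.0652) or TGF-β1 replicate 2 (adjusted p = 0.0659), and it held without each of the other 3 arrays.

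Itgb6, the epithelial activator of latent TGF-β, read 11.89, 12.11 and 12.11 in controls and 13.56, 13.85 and 12.38 after TGF-β1. The groups did not overlap, but TGF-β1 replicate 3 lay close to the controls and apart from the other treated arrays. The means were 12.03 ± 0.13 (SD, n = 3) and 13.26 ± 0.78 (SD, n = 3). The difference of 1.23 (SE 0.36, 95% interval 0.37 to 2.09), or 2.35-fold, did not pass the test (limma adjusted p = 0.136). With TGF-β1 replicate 3 left out, Itgb6 was 1.67 higher and a DEG (limma adjusted p = 0.00409). In slide row 1 the difference was 1.71, and in slide row 2 it was 0.27. A second Itgb6 probe read 8.81, 8.86 and 8.61 in controls and 10.40, 10.57 and 8.68 after TGF-β1, with TGF-β1 replicate 3 inside the range of the controls.

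Itgb5, a widely expressed partner of αv that binds vitronectin, read 14.41, 14.11 and 14.13 in controls and 15.08, 15.08 and 14.72 after TGF-β1. Its groups were separate, with a small spread in each. The difference of the means was 0.75 (SE 0.15, 95% interval 0.39 to 1.1, limma adjusted p = 0.0635), and it was 0.82 and 0.59 in slide rows 1 and 2. Scaled to the 75th percentile it was 0.49 (limma adjusted p = 0.118). With a normexp background it was 0.72 (limma adjusted p = 0.0326), and with slide row as a factor 0.75 (adjusted p = 0.0461), both under 2-fold.

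Itgb1, the common partner of the fibronectin, collagen and laminin receptors, read 15.71, 15.73 and 16.18 in controls and 16.58, 16.67 and 16.15 after TGF-β1. Control replicate 3 and TGF-β1 replicate 3 had nearly the same signal. The mean difference was 0.59 (SE 0.19, 95% interval 0.13 to 1.05, limma adjusted p = 0.16), with 0.90 in slide row 1 and -0.029 in slide row 2. Scaled to the 75th percentile it was 0.36 (limma adjusted p = 0.215). The second Itgb1 probe gave 0.63 with overlapping groups.

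Itgb8, the other known activator of latent TGF-β, was near the detection mark. It read 4.70, 3.55 and 5.01 in controls, where it was well above background on 2 of 3 arrays, and 5.25, 5.32 and 4.90 after TGF-β1, where it was so on all 3. The groups overlapped. On the log2 scale the difference was 0.73 (SE 0.37, 95% interval -0.14 to 1.60, limma adjusted p = 0.283), and with a normexp background it was 0.078. Without control replicate 2, the low control, it was 0.30 (adjusted p = 0.463).

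An exact permutation test over the arrays, two-sided, gave p = 0.1 for each of Fn1, Itga5, Itgb3, Itgb5 and Itgb6, the smallest value that 3 against 3 arrays allow. For Itgav, Itgb1 and Itgb8 the same exact test gave p = 0.2.

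**Figure D2:**
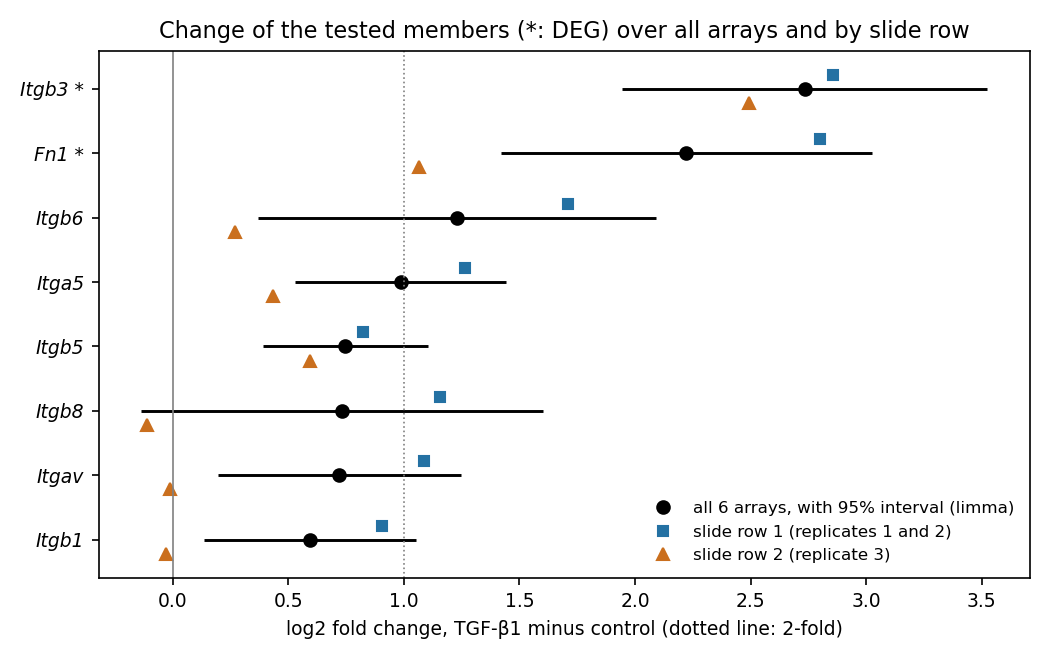
Log2 fold change, TGF-β1 minus control, of the 8 tested genes (horizontal axis, dotted line at 2-fold), with black points and 95% limma intervals for all 6 arrays, blue squares for slide row 1 and orange triangles for slide row 2 (1 array per group, no interval). Stars mark the DEGs Fn1 and Itgb3. The row 2 value is below the row 1 value in all 8 genes and below 0 for Itgav, Itgb1 and Itgb8.

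TGF-β1 replicate 3 was the lowest of the treated arrays in all 8 tested genes, as it was in 36.5% of all genes tested and in 68.4% of the 171 upregulated DEGs. Control replicate 3 was the highest control in 6 of the 8, in Itgb6 only by 12.108 against 12.1076. The share of all genes with that order was not computed, so whether this count is unusual is not known. TGF-β1 replicate 3 exceeded control replicate 3, its neighbour in slide row 2, in 5 of the 8 genes, against 50.8% of all genes. In the other 3, Itgav, Itgb1 and Itgb8, the sign in slide row 2 was opposite to that over all arrays, as it was in 38.5% of all genes. On a scale from the control mean to the mean of TGF-β1 replicates 1 and 2, TGF-β1 replicate 3 stood at 68.1% for Itgb3, 62.9% for Itga5, 62.1% for Fn1, 58.3% for Itgb5 and 55.9% for Itgb8. It stood at 36.7% for Itgb1, 34.7% for Itgav and 20.5% for Itgb6. The median over the 171 upregulated DEGs was 78.5%, a set chosen in part for agreement among these arrays. Without TGF-β1 replicate 3, 4 of the 8 genes were upregulated DEGs, Fn1, Itga5, Itgb3 and Itgb6. Itgav (adjusted p = 0.0286), Itgb1 (adjusted p = 0.0394) and Itgb5 (adjusted p = 0.0151) then had a limma adjusted p under 0.05 with less than a 2-fold change. The number of upregulated DEGs among all genes tested rose as well, from 171 with all arrays to 553 in that fit. What set replicate 3 apart was not tested.

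**Figure D3:**
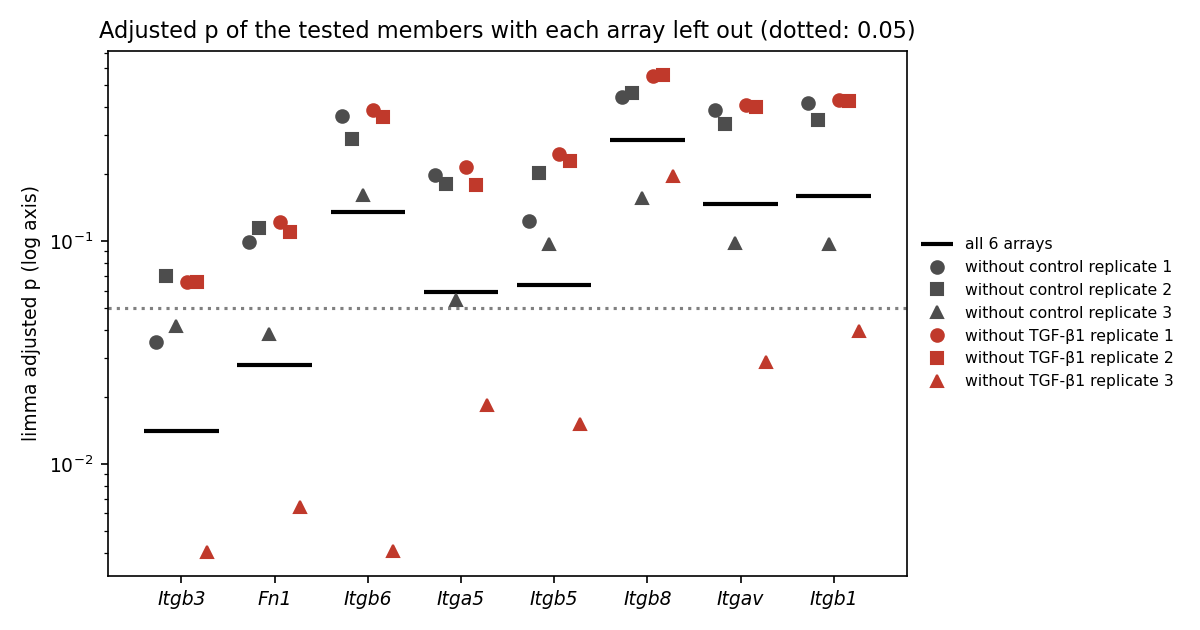
Limma adjusted p (vertical, log axis, dotted line at 0.05) of the 8 tested genes with all 6 arrays (black lines) and with each array left out (symbols, grey for controls and red for TGF-β1). The red triangles, without TGF-β1 replicate 3, are the lowest points and lie below 0.05 in all genes but Itgb8, while Itgb3 and Fn1 cross the line when other single arrays are left out.

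Changes of 2 genes were also compared within arrays, by taking the difference of their log2 signals on each array. This was done for 17 pairs, Fn1 with each tested subunit and the β subunits with each other. On the log2 scale the change of Fn1 exceeded that of Itga5 by 1.24, Itgav by 1.50, Itgb1 by 1.63, Itgb5 by 1.47, Itgb6 by 0.99 and Itgb8 by 1.49, with no overlap between groups in any of these pairs. The same held for Itgb3 against Itgb1, Itgb5, Itgb6 and Itgb8, with 1.99 more than Itgb5, 1.50 more than Itgb6 and 2.00 more than Itgb8. Each of these 10 pairs had p = 0.1 in the exact permutation test, two-sided, and 0.17 after Benjamini-Hochberg adjustment over the 17 pairs, so none passed. Such a separation is common for genes that rose strongly, since Fn1 was separated in this way from 97.2% and Itgb3 from 98.5% of all other genes tested. Fn1 and Itgb3 themselves differed by -0.51 with overlapping groups (exact permutation p = 0.4). Among Itgb1, Itgb5, Itgb6 and Itgb8 no pair was separated.

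The genes whose pattern over the 6 arrays was most like that of Fn1, by root mean square distance of the centred log2 signals among 13516 genes well above background on every array, were Sparc (0.19), Fst (0.20), Kif26b (0.20), Timp1 (0.22) and Ltbp1 (0.23). The nearest to Itgb3 were Mylk (0.34), Aif1l (0.35), Lrrc32 (0.36), Prnd (0.38) and Dkk3 (0.39). The distance to Itgb3 was thus larger for each of its neighbours than that of any of the 5 neighbours of Fn1. Sparc encodes a matrix glycoprotein, Fst an antagonist of activins, Timp1 an inhibitor of metalloproteinases and Mylk the kinase of the myosin light chain.

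Of 17 other integrin subunit genes, 13 were tested and none was a DEG in limma, with 6 higher and 1 lower at an unadjusted p under 0.05. Itga2, a collagen receptor subunit, differed by 0.93 on the log2 scale (SE 0.27, limma adjusted p = 0.13), Itga6, a laminin receptor subunit, 0.92 (SE 0.20, adjusted p = 0.0798) and Itga11, another collagen receptor subunit, 0.81 (SE 0.24, adjusted p = 0.142). The median of the list was 0.27. With the methods' t-test the list held no DEG either, while without TGF-β1 replicate 3 it held 4 upregulated DEGs and 1 downregulated DEG. Over all genes, that fit held 553 upregulated and 156 downregulated DEGs, against 171 and 27 with all arrays.

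Inside the cell, 28 of 30 genes of the adhesion complex were tested, and 2 were upregulated DEGs and none was a downregulated DEG. At an unadjusted p under 0.05 in limma, 8 of the 28 were higher and 3 were lower, against 11.4% and 10.7% of all genes. Fermt1, which encodes the epithelial kindlin that activates integrins, rose by 1.54 on the log2 scale (SE 0.23, limma adjusted p = 0.0242), and Tns1, which encodes a tensin that links integrins to actin, rose by 1.27 (SE 0.21, adjusted p = 0.0403). Flna, encoding filamin A, differed by 0.92 (SE 0.22, adjusted p = 0.0935). The median of this list was 0.12, near that of all genes. Fermt1 was no DEG without any one of the controls (adjusted p = 0.0626 to 0.0948), TGF-β1 replicate 1 (0.102) or TGF-β1 replicate 2 (0.107). Tns1 was none without control replicate 2 (adjusted p = 0.138), control replicate 3 (0.0801), TGF-β1 replicate 1 (0.153) or TGF-β1 replicate 2 (0.11), nor with slide row as a factor (0.0505) or with the mean of its probes (0.0592).

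Among 20 other ligands of these integrins, 11 were tested, 4 were upregulated DEGs and none was a downregulated DEG in limma, with none lower at an unadjusted p under 0.05. Tgfbi, which encodes a TGF-β-induced matrix protein, rose by 4.58 on the log2 scale (SE 0.31, limma adjusted p = 0.00247). Spp1, encoding osteopontin, an RGD ligand of αv integrins, rose by 3.01 (SE 0.43, adjusted p = 0.0226). Ccn2 and Ccn1, which encode matricellular proteins, rose by 2.10 (SE 0.23, adjusted p = 0.0112) and 1.53 (SE 0.24, adjusted p = 0.0315). The median of the list was 1.24. Of these, only Tgfbi was a DEG without each array in turn. Spp1 and Ccn1 were lost in every such fit but that without TGF-β1 replicate 3 (adjusted p = 0.0534 to 0.103 for Spp1 and 0.0501 to 0.144 for Ccn1), and Ccn2 was lost without control replicate 1 (adjusted p = 0.053), TGF-β1 replicate 1 (0.0534) or TGF-β1 replicate 2 (0.0526).

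Of 16 genes for latent TGF-β and its handling, 12 were tested, 2 were upregulated DEGs and none was a downregulated DEG in limma, with none lower at an unadjusted p under 0.05. Ltbp2, of the latent TGF-β binding protein family, rose by 4.03 on the log2 scale (SE 0.30, limma adjusted p = 0.00316), but it was well above background on only 1 of 3 control arrays and the log2 fold change with a normexp background was 1.76. Lrrc32, encoding GARP, the surface anchor of latent TGF-β, rose by 2.35 (SE 0.22, adjusted p = 0.00642), and by 1.00 with a normexp background. Ltbp1, which tethers latent TGF-β to fibronectin-containing matrix, differed by 1.81 (SE 0.34, adjusted p = 0.0528). Ltbp1 was a DEG with a normexp background (adjusted p = 0.0256), without control replicate 3 (0.0358) and without TGF-β1 replicate 3 (0.0148). The median was 0.78. The list held 4 upregulated DEGs with a normexp background and 6 without TGF-β1 replicate 3. Over all genes these fits held 138 and 553, against 171 in the main fit. With the methods' t-test adjusted the list held none.

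All 11 genes for other fibronectin partners were tested, and 1 was an upregulated DEG and none was a downregulated DEG in limma, with none lower at an unadjusted p under 0.05. Lox, encoding the lysyl oxidase that crosslinks collagen and binds fibronectin, rose by 3.13 on the log2 scale (SE 0.34, limma adjusted p = 0.0112), and it was no DEG without control replicate 1 (adjusted p = 0.0527) or TGF-β1 replicate 2 (adjusted p = 0.0566). Hspg2, encoding perlecan, differed by 1.80 (SE 0.48, adjusted p = 0.118) and Fbln1, encoding fibulin 1, by 1.38 (SE 0.64, adjusted p = 0.258). The median was 0.85. With a normexp background the list held 3 upregulated DEGs, without control replicate 3 it held 2 and without TGF-β1 replicate 3 it held 6. Over all genes these fits held 138, 151 and 553, against 171 in the main fit. The list held none without the filter, with the methods' t-test adjusted or with the replicate block. It also held none without control replicate 1 or TGF-β1 replicate 2.

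**Figure D4:**
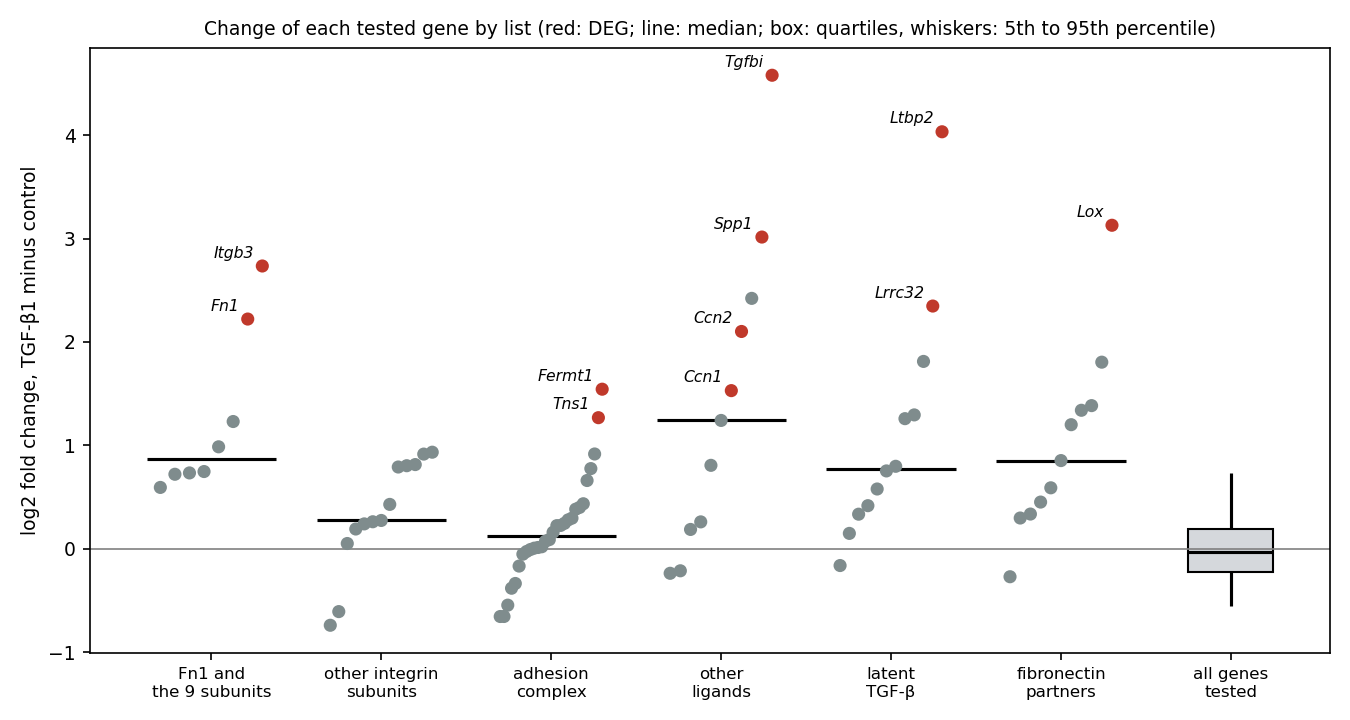
Log2 fold change, TGF-β1 minus control (vertical axis), of each tested gene in 6 gene lists, with DEGs in red and named, a line at each list's median, and for all 14345 genes a box of the quartiles with whiskers to the 5th and 95th percentile. Both DEGs among the 8 tested genes, Fn1 and Itgb3, stand above the other 6, and the highest points of all are Tgfbi among the ligands and Ltbp2 among the latent TGF-β genes.

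Genes of other cell types were read beside these results. For fibroblasts, a known source of fibronectin, the summed signal of 9 markers was 9.18 to 9.35 on the log2 scale in controls and 9.47 to 11.40 after TGF-β1, with TGF-β1 replicate 3 the lowest treated array. Of the 9, 5 were well above background on at least 1 array and 3, Dcn, Thy1 and Pdgfra, on all 6. Col1a1 and Col1a2 were upregulated DEGs and were well above background on 0 of 3 control and 3 of 3 TGF-β1 arrays, while Col3a1, Pdgfrb, Lum and Tcf21 were not on any array. Dcn had means of 8.92 in controls and 9.92 after TGF-β1 (limma adjusted p = 0.273) and Pdgfra means of 6.47 and 6.69 (adjusted p = 0.484). Thy1 read 4.14, 4.67 and 4.23 in controls and 8.19, 7.65 and 4.60 after TGF-β1 (limma adjusted p = 0.176), so that TGF-β1 replicate 3 lay within the controls.

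Of 7 smooth muscle markers, 5 were well above background on at least 1 array, and Myh11 and Des on none. Cnn1 was an upregulated DEG. Tagln, which encodes an actin-binding protein, read 8.64, 8.22 and 8.40 in controls and 11.04, 10.86 and 9.37 after TGF-β1, with separate groups and a difference of 2.00 (limma adjusted p = 0.0735). Acta2 had means of 13.69 and 13.71 and made up most of the summed signal, which was 13.38 to 14.09 in controls and 13.63 to 14.16 after TGF-β1. Of 5 markers of platelets and megakaryocytes, which carry β3, Itga2b, Pf4, Gp9 and Gp1ba were below the background mark on all arrays. The fifth, Ppbp, was well above it on all 6 and read 6.40, 7.48 and 6.66 in controls and 8.74, 8.72 and 5.25 after TGF-β1 (limma adjusted p = 0.66). For endothelium, 6 of 8 markers, Cdh5 and Kdr among them, stayed below the mark throughout, Pecam1 was above it on all 6 arrays, and the summed signal was 6.54 to 6.87 in controls and 6.80 to 6.95 after TGF-β1. Of 7 leukocyte markers, Ptprc, Adgre1 and Lyz2 were below the mark on all arrays, while Cd68, Csf1r and Cd3e were above it on all 6. Cd68, a lysosomal protein gene, had means of 10.88 in controls and 11.78 after TGF-β1 with separate groups (limma adjusted p = 0.147). Csf1r had means of 12.33 and 12.34 and Cd3e means of 8.33 and 8.10, both with overlapping groups. The summed signal of the leukocyte markers was 12.63 to 13.13 in controls and 13.05 to 13.30 after TGF-β1. The summed signal of the 4 basal cell markers was 14.69 to 15.44 in controls and 15.71 to 17.00 after TGF-β1, with TGF-β1 replicate 3 the lowest treated array here too. In slide row 2 the basal markers Krt5 and Ngfr differed by -0.20 and -0.016, against 1.37 and 1.36 over all arrays. The other basal markers, Krt14 and Trp63, differed there by 0.46 and 0.045, against 1.55 and 0.18 over all arrays. Foxj1 was the only DEG of 4 ciliated cell markers (log2 fold change 1.47, limma adjusted p = 0.00239). The club cell markers Scgb1a1, Scgb3a2 and Cyp2f2 differed by -2.27, 1.05 and -0.066 (limma adjusted p = 0.158, 0.117 and 0.696). No tested goblet or alveolar marker was a DEG. Basal cells are known to carry integrins, and the part of cell composition in the values of Fn1 and the integrins was not tested.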

How the data were processed

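Spot intensities of 6 single-colour Agilent arrays were deposited by the authors as background-subtracted, linear signals without normalisation between arrays, made with Agilent Feature Extraction 11.0.1.1. Other columns deposited by the authors flag uneven or outlying spots and spots well above background. Control and flagged spots were left out (56599 of 56605 probes remained), the spots of a probe were averaged, and log2 signals were normalised by quantiles. Accessions were matched to symbols through RefSeq on GRCm38.p6, which named 32991 of 35883 probes with a RefSeq accession. The array was designed on another build, so probe positions are not given, and the promoter coordinates are those of the RefSeq table. Probes well above background on at least 3 arrays (32460) were tested with limma 3.58.1 in R 4.3.3, and the fit was tested on simulated data. Fits that left out an array kept the 6-array normalisation.

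The genes, lists and tests were chosen with earlier results of these data known. Text names the 10 genes, every DEG of each list up to 6 and otherwise the 3 largest changes, and the 5 nearest profiles to Fn1 and Itgb3. Genes of the marker lists named beside these were chosen after their values were seen. Alternatives were another scaling, background, filter, probe rule, variance prior, weights, block, slide row and test. For normexp the median spot brightness replaced the planned mean, which was not used here.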

Additional observations from a re-analysis of the deposited data

How the results depend on the processing

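Of all genes, 171 were upregulated and 27 downregulated DEGs. The upregulated count was 49 without the filter, 385 with unadjusted p, 312 with the methods' t-test unadjusted and 4 with it adjusted, 594 with array weights, 85 with the replicate block and 627 within slide row 1, and it ranged from 49 to 553 with single arrays left out. The downregulated count was 16 with a normexp background, 11 without the filter, 108 with unadjusted p, 76 with the methods' t-test unadjusted and 1 with it adjusted, 213 with array weights, 45 with slide row as a factor and 234 within slide row 1, and it ranged from 7 to 156 with single arrays left out. Of the 10 genes, 2 were upregulated DEGs. This became 0 without the filter (limma, with 4 changed by 2-fold at unadjusted p under 0.05, Itga4 included) and 0 with the methods' t-test adjusted (2 unadjusted), 4 with array weights, 5 within slide row 1 and 1 with the replicate block, and 0 to 4 with single arrays left out (limma, at least 2 at unadjusted p under 0.05 in each). No gene was downregulated except Itga4 without the filter, a count of 1. Within slide row 2, with 1 array per group and no test, 3 of the 8 tested genes changed sign, -0.012 for Itgav, -0.029 for Itgb1 and -0.11 for Itgb8, as did Fbln1 at -0.59. Sign changes also occurred in 3 of 13 other integrin subunits, 7 of 28 adhesion genes, 1 of 11 ligands, 3 of 12 latent TGF-β genes and 2 of 11 fibronectin partners, Fbln1 included, against 38.5% of all genes. The causes of these changes were not tested. More genes were tested without the filter, and a single slide row held fewer arrays.

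Whether equal replicate numbers mark paired cultures cannot be told from 3 arrays per group, and the main fit did not pair them. The correlations of the deviations were -0.0079, 0.33 and -0.047 for equal numbers. For unequal numbers they lay between -0.37 and 0.25. With the replicate block, Itgb3 kept its call (adjusted p = 0.0196) and Fn1 lost it (adjusted p = 0.105). Of the genes named from the lists, Tns1 (0.0901), Spp1 (0.0765), Ccn1 (0.102) and Lox (0.0649) lost theirs under the block. Scaling to the 75th percentile moved the median of all genes from -0.03 to -0.094.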
